A study of Mus musculus with 14 samples.

Results

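Cell cycle and DNA replication genes were followed in regulatory T cells (Tregs) sorted from mice, the CD4 lineage that is defined by Foxp3 and restrains immune responses. The set held 45 genes of the 21902 gene symbols that the Clariom S array reads through 22203 transcript clusters, a transcript cluster being the probes for 1 gene. Of these, 17 act in S phase and at its start (cyclin E, E2F factors, the Mcm helicase, nucleotide supply) and 28 act from the end of S phase through mitosis. The genes were chosen by name, and the transcript cluster whose first gene symbol was that name was taken. All 45 were found, each with 1 transcript cluster. The values are log2 signals, so a difference of 1 is a doubling of the probe signal.

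A resting T cell enters the cycle when cyclin and Cdk complexes inactivate the pocket proteins that hold E2F factors in check. E2F factors then switch on cyclin E, the helicase that opens replication origins and the enzymes that make deoxynucleotides. Later, B-Myb and Foxm1 switch on the cyclins, kinases, kinesins and checkpoint proteins of mitosis, many of them through a promoter element called the CHR and neighbouring CCAAT boxes. Lymphoid tissue holds Tregs that are largely at rest, the central Tregs (cTregs), and activated effector Tregs (eTregs), which are known to divide more.

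Tregs came from mixed bone marrow chimeras. In these, sublethally irradiated Rag1-/- hosts, which make no mature T or B cells of their own, received CD45.2+ donor marrow together with CD45.1+ wild-type marrow. The hosts were rested for 6 to 8 weeks. All CD45.2+ donors carried the Foxp3Cre allele, which cuts loxP-flanked (floxed) DNA in cells that express Foxp3. Control donors, labelled heterozygous, had 1 floxed Atg14 allele (Foxp3Cre Atg14+/fl), and donors labelled KO had both floxed (Foxp3Cre Atg14fl/fl). Atg14 is a subunit of a Vps34 lipid kinase complex that starts autophagy. Within each genotype cTregs (CD44 low) and eTregs (CD44 high) were sorted by the YFP reporter of the Cre allele, giving 4 arrays of control cTregs, 3 of labelled KO cTregs, 4 of control eTregs and 3 of labelled KO eTregs. The study's legend names the spleen of 4 control and 3 Foxp3Cre Atg14fl/fl chimeras as the source, without saying which arrays share a chimera. The ages of the hosts and any pooling of animals are not given in the sources used here, so P values measure the spread between these samples. In sorted bulk cells, fewer cycling cells and less RNA of these genes per cell cannot be told apart.

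The subset labels held: the eTreg markers Cd44, Icos, Tigit, Klrg1 and Itgae were higher and the cTreg markers Ccr7, Tcf7, Lef1 and S1pr1 lower in eTregs of both genotypes, and Foxp3 differed by 0.02 (log2) between subsets in each. The Atg14 signal did not follow its label. It lay between 8.64 and 9.26 in control arrays and between 9.00 and 9.33 in arrays labelled KO, a log2 difference of 0.32 in eTregs (limma, adjusted P = 0.55) and 0.35 in cTregs (limma, adjusted P = 0.9999), so those arrays are called labelled KO throughout. The study reports that quantitative PCR verified Atg14 deletion in Tregs sorted from Foxp3Cre Atg14fl/fl mice, which were not these chimeras. Where the probes lie relative to the floxed exons was not analysed here. Within these arrays, directions between genotypes below rest on the labels. The background probe sets had array medians of 6.00 to 6.30. The mean signals of Bub1 and Cenpe in control cTregs and of Bub1 and Bub1b in labelled KO cTregs lay at or under 6.30, so their differences from cTregs are not exact sizes. For 29 of the 45 genes even the highest group mean lay under 9.58, the 95th percentile of the background probe sets averaged over arrays, among them Kif23, Tpx2, E2f8, Top2a, Plk1, Kif11 and Ccne2, which are described below.

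As a summary of each array, the log2 signal of every gene was set against its mean over the control cTreg arrays and averaged over the genes of a class. Mitotic genes stood at -0.15, -0.01, 0.09 and 0.07 in control cTregs, at -0.06, 0.18 and 0.09 in labelled KO cTregs, at 0.46, 0.57, 0.43 and 0.35 in control eTregs, and at 0.21, 1.07 and 0.70 in labelled KO eTregs. Every eTreg array of either genotype therefore lay above every cTreg array. S phase genes stood at -0.04, -0.02, -0.01 and 0.08 in control cTregs, at -0.15, 0.22 and -0.06 in labelled KO cTregs, at 0.19, 0.31, 0.21 and 0.20 in control eTregs, and at 0.13, 0.64 and 0.40 in labelled KO eTregs. Here control eTregs lay above control cTregs, but labelled KO cTreg 2 lay above labelled KO eTreg 1 and above 3 of the control eTregs. The labelled KO eTreg arrays were the least alike: KO eTreg 1 was the lowest of its group for 24 of 28 mitotic and 13 of 17 S phase genes, and KO eTreg 2 the highest for 24 and 12.

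**Figure D1:**
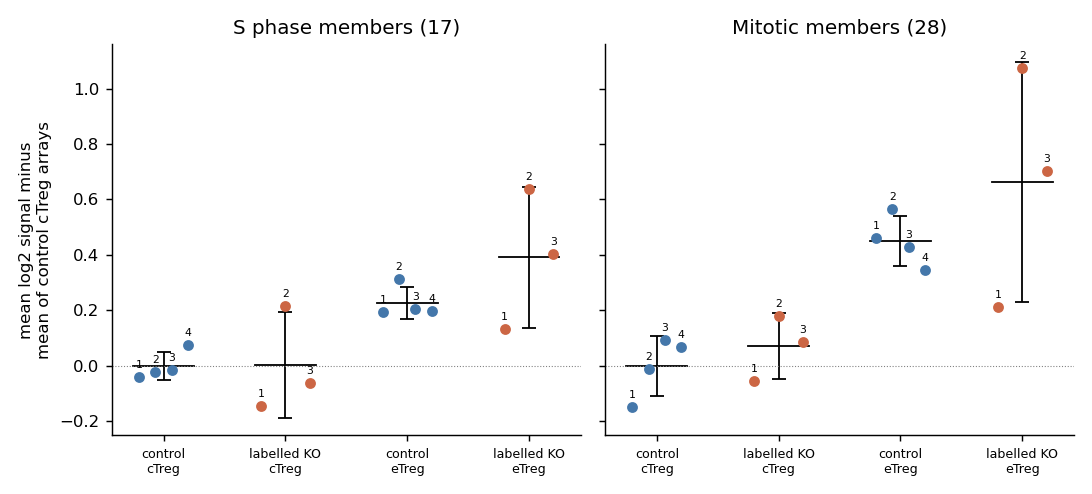
Mean log2 signal of the 17 S phase genes (left) and the 28 mitotic genes (right) on each of 14 arrays, minus the mean of the control cTreg arrays. Points are arrays with their replicate number and bars the group mean ± SD; in the mitotic panel all eTreg arrays (0.21 to 1.07) lie above all cTreg arrays (-0.15 to 0.18), and labelled KO eTregs spread most.

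Promoters from RefSeq (GRCm38.p6; 250 bases before to 50 after the start of transcription) were matched to 38 of the 45 genes. Ccne2, Mcm4, Ccna2, Foxm1, Aurkb, Kif20a and Tpx2 had no entry. Some genes had more than 1 start in the table, which gave 16 S phase and 25 mitotic promoters. Letters of 3 elements were searched on both strands: the CHR core TTTGAA, the CCAAT box, and the E2F letters TTTGGCGC, TTTCCCGC, TTTGCCGC or TTTCGCGC. No letter run of one motif is contained in another. The CHR letters occurred in 20 of 25 mitotic promoters (80.0%), in 3 of 16 S phase promoters (18.8%) and in 17.9% of all 32851 promoters. CHR letters together with a CCAAT box occurred in 19 mitotic promoters (76.0%), against 6.95% of all. The E2F letters showed the opposite order, with 5 of 16 S phase promoters (31.3%), 1 of 25 mitotic promoters (4.00%, Cdk1) and 2.27% of all, and those S phase promoters belonged to Cdc6, Mcm3, Mcm5, Mcm6 and Mcm7. These are matches of letters and not measured binding.

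**Figure D2:**
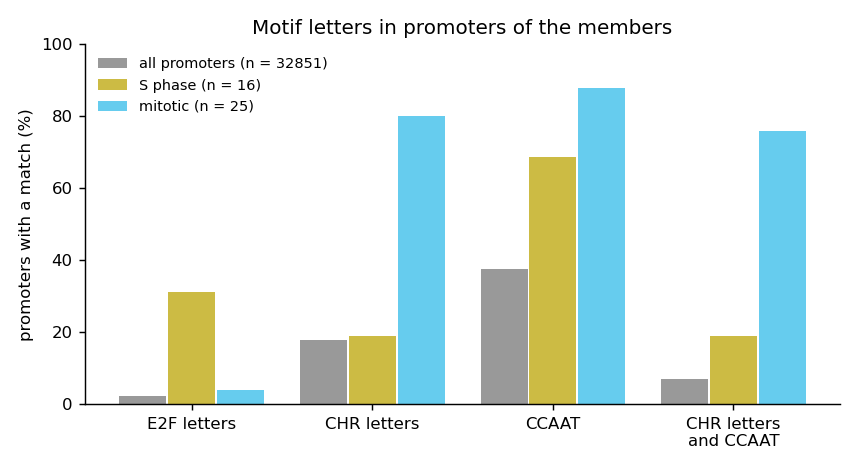
Share of promoters, in percent, that hold the E2F letters, the CHR letters, a CCAAT box, or both of the last, for all 32851 RefSeq promoters, 16 promoters of S phase genes and 25 of mitotic genes. The CHR bar is at 80.0% for mitotic genes and near that of all promoters (17.9%) for S phase genes, and the E2F bar is highest for S phase genes (31.3%).

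The promoters of 6 genes whose signals are described below are printed in lower case with the searched letters in capitals, 5′ to 3′ on the strand of the gene. Mki67, Kif23, Gsg2 and Plk1 show the mitotic arrangement with and without a CCAAT box, E2f8 is an S phase gene that has the CHR letters (on the reverse strand, TTCAAA), and Mcm3 shows the E2F letters.
Mki67 promoter, GRCm38.p6 chr7:135716330-135716629, minus strand: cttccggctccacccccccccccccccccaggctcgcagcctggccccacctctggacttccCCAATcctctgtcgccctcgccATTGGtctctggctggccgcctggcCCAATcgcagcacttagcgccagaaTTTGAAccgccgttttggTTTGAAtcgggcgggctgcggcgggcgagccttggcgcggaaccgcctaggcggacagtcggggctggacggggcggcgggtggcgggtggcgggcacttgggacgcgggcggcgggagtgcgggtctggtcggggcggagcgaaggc
Kif23 promoter, GRCm38.p6 chr9:61946750-61947049, minus strand: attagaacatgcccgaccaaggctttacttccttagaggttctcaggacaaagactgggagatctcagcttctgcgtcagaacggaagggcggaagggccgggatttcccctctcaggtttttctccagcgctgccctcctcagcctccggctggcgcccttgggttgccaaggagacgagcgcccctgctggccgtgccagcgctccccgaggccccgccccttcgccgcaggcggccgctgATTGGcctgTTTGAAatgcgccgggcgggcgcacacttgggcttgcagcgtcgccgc
Gsg2 promoter, GRCm38.p6 chr11:73138245-73138544, minus strand: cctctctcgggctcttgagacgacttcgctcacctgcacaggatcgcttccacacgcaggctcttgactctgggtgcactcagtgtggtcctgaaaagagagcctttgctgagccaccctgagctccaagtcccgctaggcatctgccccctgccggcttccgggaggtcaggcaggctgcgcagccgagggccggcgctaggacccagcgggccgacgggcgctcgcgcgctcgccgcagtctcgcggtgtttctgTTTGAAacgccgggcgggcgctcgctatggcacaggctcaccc
Plk1 promoter, GRCm38.p6 chr7:122159185-122159484, plus strand: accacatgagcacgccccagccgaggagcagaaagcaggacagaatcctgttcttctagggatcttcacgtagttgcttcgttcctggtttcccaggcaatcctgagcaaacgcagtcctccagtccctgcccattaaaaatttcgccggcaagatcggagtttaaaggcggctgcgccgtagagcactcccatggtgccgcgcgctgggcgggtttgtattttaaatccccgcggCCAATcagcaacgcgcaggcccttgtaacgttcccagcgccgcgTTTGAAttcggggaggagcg
E2f8 promoter, GRCm38.p6 chr7:48881547-48881846, minus strand: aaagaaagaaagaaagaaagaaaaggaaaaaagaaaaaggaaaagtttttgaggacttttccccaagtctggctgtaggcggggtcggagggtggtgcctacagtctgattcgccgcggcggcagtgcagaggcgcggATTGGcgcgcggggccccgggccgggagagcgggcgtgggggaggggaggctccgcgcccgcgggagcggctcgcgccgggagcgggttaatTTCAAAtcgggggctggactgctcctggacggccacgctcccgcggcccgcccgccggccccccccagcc
Mcm3 promoter, GRCm38.p6 chr1:20820263-20820562, minus strand: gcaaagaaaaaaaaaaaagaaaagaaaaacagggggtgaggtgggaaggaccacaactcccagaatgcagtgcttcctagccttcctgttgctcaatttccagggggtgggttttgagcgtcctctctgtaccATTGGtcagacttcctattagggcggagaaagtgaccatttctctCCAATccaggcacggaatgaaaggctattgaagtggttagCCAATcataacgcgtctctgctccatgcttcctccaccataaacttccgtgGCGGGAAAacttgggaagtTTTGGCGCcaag

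In these windows Mki67 had 2 CHR matches and 3 CCAAT boxes, all upstream of the start. Kif23 and Plk1 had 1 of each, with the CHR letters after the start, and Gsg2 had the CHR letters after the start and no CCAAT box. The promoter of Birc5, another mitotic gene that rose in eTregs, held none of the letters searched. Mcm3 had 2 E2F matches after the start (TTTGGCGC, and TTTCCCGC read on the other strand) and 3 CCAAT boxes.

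Between control eTregs and control cTregs the question was which cycle genes differ between activated and resting Tregs when 1 Atg14 allele is intact. Mitotic genes were mostly higher in eTregs: 26 of 28 had a positive log2 difference (median 0.35) and 5 rose, namely Mki67, Gsg2, Kif23, Birc5 and Tpx2. Of the S phase genes 12 of 17 had a positive difference (median 0.17) and 1 rose, E2f8. Over all transcript clusters 50.7% were higher in eTregs, with a median of 0.00. Rose and fell are used for an adjusted P under 0.05 (limma, Benjamini-Hochberg over all transcript clusters) with a log2 difference of at least 0.5, a rule that 3.06% of all transcript clusters met (2.14% higher), against 6 of 45 genes here. At the threshold that the study used (unadjusted P under 0.05 with the same size) 9 mitotic and 3 S phase genes were higher, beside 3.30% of all, and for 10 mitotic and 4 S phase genes every eTreg array lay above every cTreg array, beside 6.12% of all.

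Mki67, whose protein Ki67 coats mitotic chromosomes and marks dividing cells, changed most. Its log2 signal was 8.39, 8.34, 8.57 and 9.22 in control cTregs, 8.12, 9.13 and 8.92 in labelled KO cTregs, 10.43, 10.86, 10.49 and 10.24 in control eTregs and 10.46, 11.36 and 11.23 in labelled KO eTregs. No eTreg array of either genotype reached down to a cTreg array. The eTreg minus cTreg difference was 1.87 (SE 0.25, limma, adjusted P = 0.00028) in controls, or 3.66-fold, and 2.29 (SE 0.29, limma, adjusted P = 0.000387) in labelled KO, or 4.91-fold. Mki67 and Gsg2 met the rule in both genotypes with any 1 of the 14 arrays left out. Kif23 encodes a kinesin of the central spindle, needed for cytokinesis. It read 6.75, 7.54, 7.13 and 6.97 in control cTregs, 7.01, 7.17 and 7.12 in labelled KO cTregs, 7.89, 8.31, 7.99 and 7.88 in control eTregs and 7.71, 8.81 and 8.05 in labelled KO eTregs. The subsets did not overlap in either genotype, and the difference was 0.92 (SE 0.20, limma, adjusted P = 0.0144) in controls and 1.09 (SE 0.23, limma, adjusted P = 0.0199) in labelled KO. It lost the call without control cTreg 1 or control eTreg 2 in controls (highest adjusted P 0.0576), and in labelled KO without any 1 of 5 arrays (highest adjusted P 0.0846).

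Gsg2 (RefSeq name Haspin), the kinase that marks histone H3 at centromeres for the passenger complex, read 8.98, 8.71, 9.24 and 8.97 in control cTregs, 9.06, 9.84 and 9.81 in labelled KO cTregs, 10.22, 10.61, 10.12 and 10.32 in control eTregs and 10.66, 10.86 and 11.24 in labelled KO eTregs. The eTregs lay above the cTregs in both genotypes, by 1.34 (SE 0.18, limma, adjusted P = 0.00031) in controls and 1.35 (SE 0.21, limma, adjusted P = 0.00197) in labelled KO. This gene lies within Itgae, which encodes the eTreg integrin CD103, so signal from Itgae transcripts cannot be told apart from its own. Itgae itself differed by 1.61 (limma, adjusted P = 0.0011) and 1.21 (limma, adjusted P = 0.0352) in the same comparisons, and by 0.44 and 0.83 between labelled KO and control in eTregs and cTregs, where Gsg2 differed by 0.60 in each. Gsg2 is therefore given as uncertain.

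Birc5 (survivin, a subunit of the passenger complex) read 9.46, 9.44, 9.52 and 9.75 in control cTregs, 9.87, 9.61 and 9.63 in labelled KO cTregs, 10.36, 10.33, 9.89 and 10.02 in control eTregs and 9.83, 10.50 and 10.39 in labelled KO eTregs. Control eTregs all lay above control cTregs, by 0.61 (SE 0.15, limma, adjusted P = 0.0299), whereas labelled KO eTreg 1 lay within the labelled KO cTregs, and that difference was 0.54 (SE 0.17, limma, adjusted P = 0.133). Tpx2, which brings Aurora A to spindle microtubules, read 7.88, 7.84, 7.84 and 7.79 in control cTregs and 8.53, 8.23, 8.43 and 8.39 in control eTregs, a separate pair of groups with a difference of 0.56 (SE 0.11, limma, adjusted P = 0.0093). In labelled KO it read 8.16, 8.13 and 7.80 in cTregs and 8.12, 8.52 and 8.14 in eTregs, which overlapped. Birc5 lost its call in controls when any 1 of 6 arrays was left out (highest adjusted P 0.103), and Tpx2 kept it in each case.

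The other mitotic genes did not meet the rule in controls. Among the cyclins and their regulators all 5 were higher, from 0.25 for Ccnb1 to 0.70 for Ccna2 (limma, adjusted P = 0.054), with Ccnb2 at 0.44, the kinase Cdk1 at 0.45 and the transcription factor Foxm1 at 0.49. The 5 genes of the spindle checkpoint and of the ubiquitin ligase it restrains lay between 0.17 (Ube2c) and 0.71 (Bub1), and the 3 centromere genes between 0.11 (Cenpa) and 0.70 (Cenpe). Aurka at -0.26 and Prc1 at -0.03 were the 2 mitotic genes with a negative difference. Top2a, the topoisomerase that untangles replicated DNA, differed by 0.56 (SE 0.19, limma, adjusted P = 0.149), and Kif11, the kinesin that pushes spindle poles apart, by 0.49 (SE 0.14, limma, adjusted P = 0.0688).

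Of the S phase genes, E2f8 met the rule in controls. It encodes an atypical E2F that represses S phase genes late in the cycle. It read 7.02, 7.54, 7.46 and 7.61 in control cTregs, 7.48, 8.28 and 7.75 in labelled KO cTregs, 9.33, 8.31, 8.52 and 8.23 in control eTregs and 8.07, 9.45 and 8.16 in labelled KO eTregs. In controls all eTregs lay above all cTregs, by 1.19 (SE 0.29, limma, adjusted P = 0.0308), with the highest value on control eTreg 1. In labelled KO the subsets overlapped, since KO cTreg 2 lay above KO eTregs 1 and 3, and the difference was 0.72 (SE 0.34, limma, adjusted P = 0.358). Its call in controls was lost when any 1 of 6 arrays was left out (highest adjusted P 0.106). The 8 origin and helicase genes had differences of both signs, none past the rule. Cdc6, which loads the helicase, differed by 0.56 (SE 0.23, limma, adjusted P = 0.267) and Mcm6 by 0.47 (SE 0.13, limma, adjusted P = 0.0526). For both, every control eTreg lay above every control cTreg, beside 6.12% of all transcript clusters. Mcm2, Mcm3, Mcm4 and Mcm7 lay between -0.21 and 0.08. The clamp gene Pcna differed by -0.01. All 4 genes of nucleotide supply were higher, from 0.27 for Tk1 to 0.54 for Rrm2, with none past the rule.

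**Figure D3:**
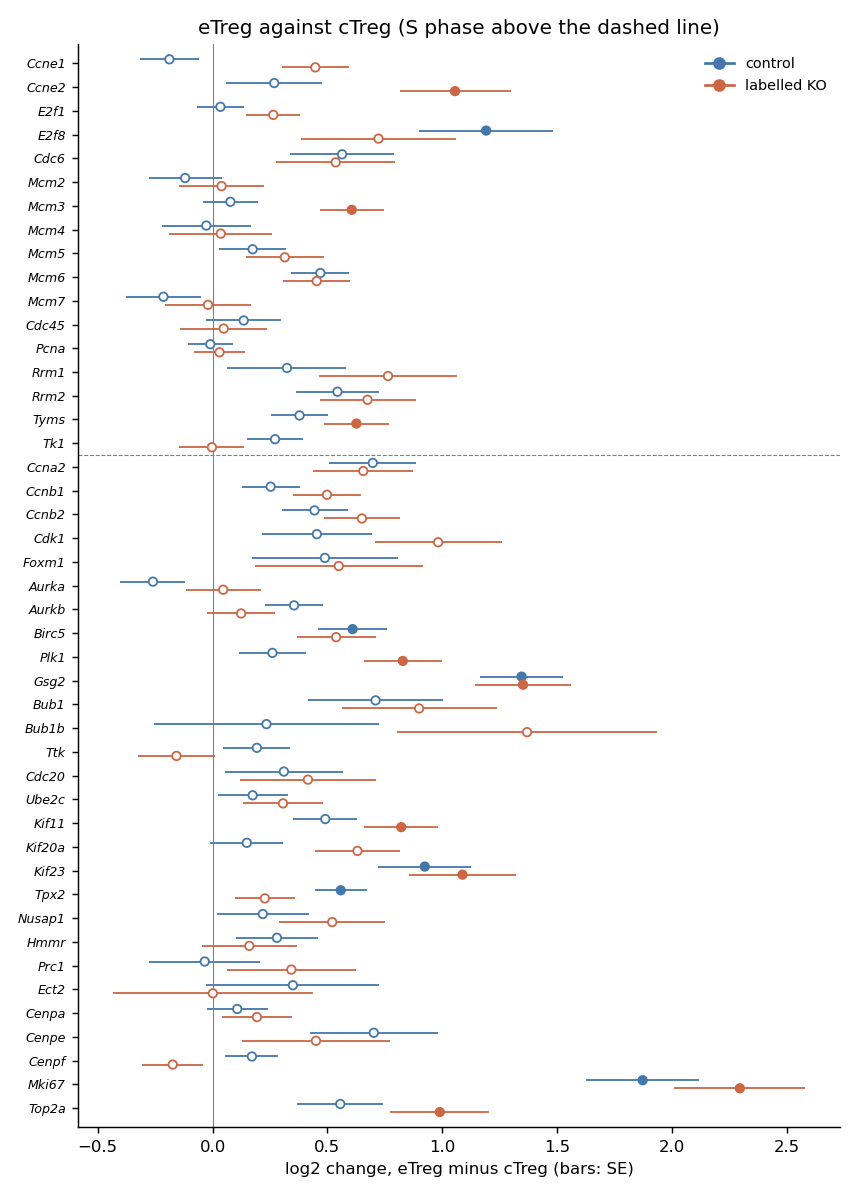
Log2 difference between eTregs and cTregs for each of the 45 genes in control (blue) and labelled KO arrays (orange), with SE as bars. Filled points met the rule of limma adjusted P under 0.05 and a difference of at least 0.5: 6 in controls and 9 in labelled KO, with Mki67 (1.87 and 2.29) farthest to the right.

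In the labelled KO arrays the same subset comparison gave a median difference of 0.53 for mitotic genes (26 of 28 positive) and 0.45 for S phase genes (15 of 17 positive), while 40.4% of all transcript clusters were higher (median -0.04). The 6 mitotic genes that rose were Mki67, Gsg2, Kif23, Top2a, Plk1 and Kif11, and the 3 S phase genes were Ccne2, Mcm3 and Tyms, which makes 9 of 45 beside 2.35% of all transcript clusters (2.02% higher). At the study's threshold 14 mitotic and 6 S phase genes were higher, beside 4.65% of all, and for 10 and 5 genes the arrays did not overlap, beside 6.46% of all. Mki67, Gsg2 and Kif23 were called in both genotypes.

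Top2a read 7.81, 8.37, 8.47 and 8.41 in control cTregs, 8.33, 8.53 and 8.24 in labelled KO cTregs, 8.68, 8.79, 8.87 and 8.95 in control eTregs and 8.80, 9.84 and 9.44 in labelled KO eTregs. Labelled KO eTregs lay above labelled KO cTregs, with KO eTreg 1 close to them, and the difference was 0.99 (SE 0.22, limma, adjusted P = 0.0221). Plk1, the polo kinase that drives entry into and exit from mitosis, read 8.62, 8.77, 8.95 and 8.79 in control cTregs, 8.60, 8.81 and 8.78 in labelled KO cTregs, 9.34, 8.64, 8.87 and 9.32 in control eTregs and 9.41, 9.74 and 9.52 in labelled KO eTregs. Its labelled KO subsets were apart by 0.83 (SE 0.17, limma, adjusted P = 0.0149), and its control subsets overlapped, with a difference of 0.26 (SE 0.15, limma, adjusted P = 0.526). Kif11 read 7.67, 7.50, 7.68 and 7.70 in control cTregs, 7.51, 8.19 and 7.86 in labelled KO cTregs, 8.05, 8.14, 8.28 and 8.05 in control eTregs and 8.68, 8.42 and 8.93 in labelled KO eTregs. The labelled KO eTregs lay above every other array of the 14, and their difference from labelled KO cTregs was 0.82 (SE 0.16, limma, adjusted P = 0.0108).

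Ccne2, a cyclin that with Cdk2 starts replication, read 8.25, 8.01, 8.34 and 8.83 in control cTregs, 7.72, 8.20 and 8.44 in labelled KO cTregs, 8.21, 8.69, 8.74 and 8.85 in control eTregs and 8.84, 9.64 and 9.05 in labelled KO eTregs. Labelled KO eTregs lay above labelled KO cTregs, by 1.06 (SE 0.24, limma, adjusted P = 0.0283), and control subsets overlapped, with 0.27 (SE 0.21, limma, adjusted P = 0.735). Mcm3, a subunit of the replicative helicase, read 10.45, 10.56, 10.41 and 10.61 in control cTregs, 10.34, 10.81 and 10.25 in labelled KO cTregs, 10.51, 10.76, 10.53 and 10.54 in control eTregs and 10.94, 11.17 and 11.10 in labelled KO eTregs. All 3 labelled KO eTregs lay above all other arrays, 0.61 (SE 0.14, limma, adjusted P = 0.0285) above labelled KO cTregs, while the control subsets differed by 0.08 (SE 0.12, limma, adjusted P = 0.913). Tyms, which makes thymidylate, read 10.28, 10.01, 10.02 and 9.96 in control cTregs, 9.93, 9.95 and 9.73 in labelled KO cTregs, 10.59, 10.36, 10.40 and 10.43 in control eTregs and 10.15, 10.66 and 10.67 in labelled KO eTregs. Both subset differences were free of overlap, 0.38 (SE 0.12, limma, adjusted P = 0.13) in controls and 0.63 (SE 0.14, limma, adjusted P = 0.0272) in labelled KO. Of these genes, Top2a, Ccne2 and Mcm3 lost the call without any 1 of 4 arrays, Tyms of 5, Plk1 of 3 and Kif11 of 2.

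Other mitotic genes with large differences in labelled KO had wide spreads. Bub1b, a checkpoint kinase, read 5.57, 6.52 and 6.52 in labelled KO cTregs and 5.97, 8.11 and 8.64 in labelled KO eTregs, so KO eTreg 1 lay within the cTregs, with a difference of 1.37 (SE 0.57, limma, adjusted P = 0.279). Cdk1, the kinase of mitosis, read 6.94, 7.33 and 7.28 and 7.43, 9.02 and 8.05 in the same groups, without overlap, and differed by 0.98 (SE 0.28, limma, adjusted P = 0.0793). Ttk at -0.16 and Cenpf at -0.17 were the mitotic genes with a negative difference.

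**Figure D4:**
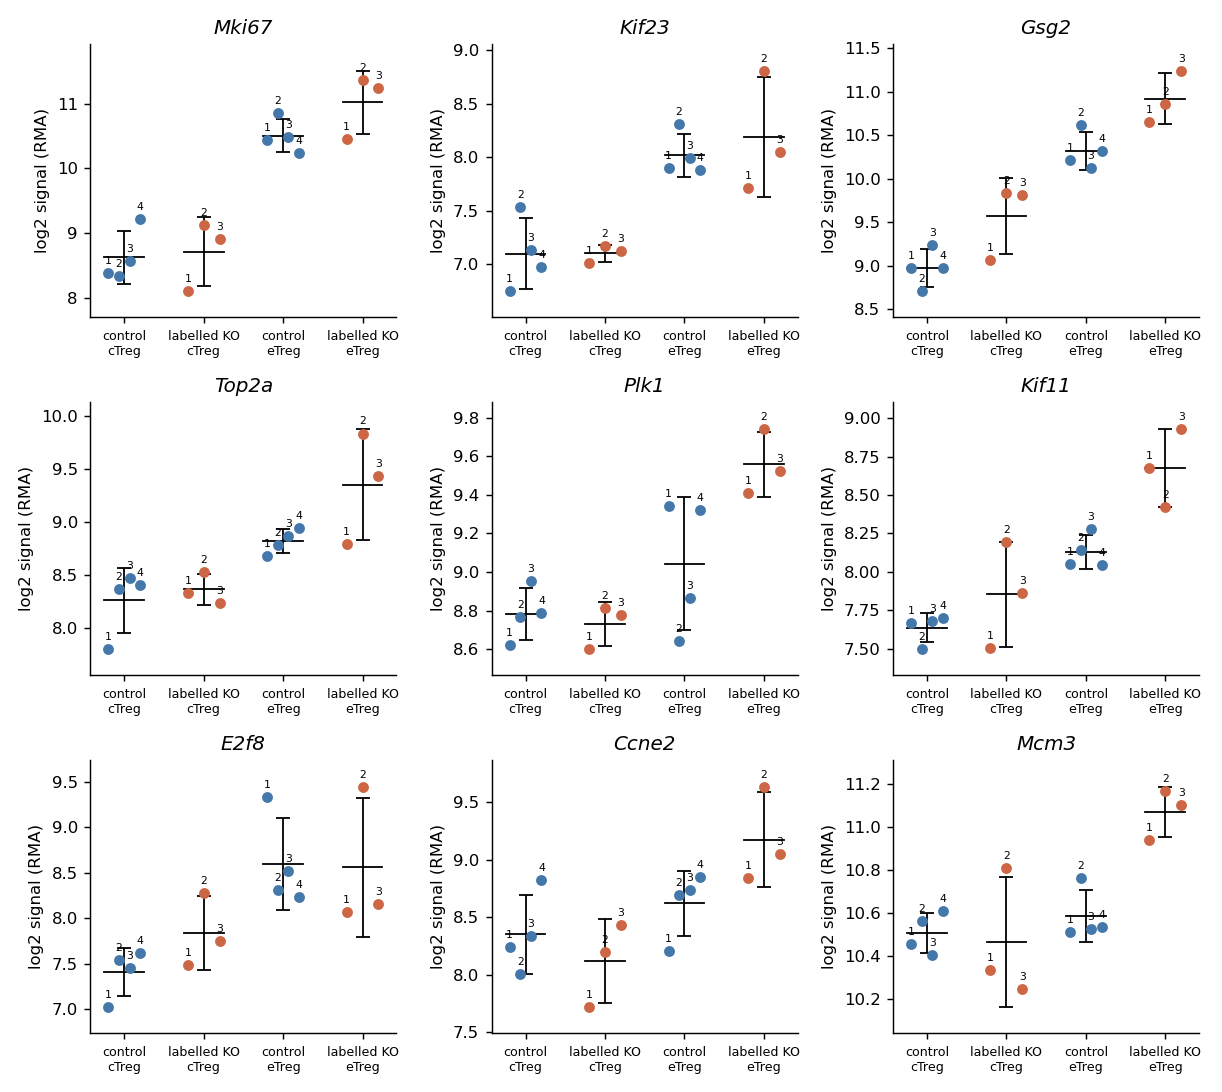
Log2 signal of 9 genes on each of the 14 arrays, grouped by subset and genotype; points carry the replicate number and bars are the group mean ± SD, on a separate scale for each gene. Mki67, Kif23 and Gsg2 separate eTregs from cTregs in both genotypes, and for Kif11 and Mcm3 the 3 labelled KO eTregs are the highest arrays.

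How far the labelled KO subset values rest on single arrays was read by leaving arrays out. Without KO eTreg 1, 13 mitotic and 7 S phase genes rose, beside 5.57% of all transcript clusters called. Without KO eTreg 2, 3 and 0 rose, beside 1.16% of all, and without KO eTreg 3 also 3 and 0, beside 0.986%. Without KO cTreg 1 the counts were 2 and 0, beside 1.39%. With both KO eTregs 2 and 3 left out, an alternative chosen after their values were seen, KO eTreg 1 is the only labelled KO eTreg array left and its own spread is unknown, so its values are given without a test. Against labelled KO cTregs its medians were 0.05 (mitotic) and 0.19 (S phase), with Mki67 at 1.74.

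KO eTregs 2 and 3 also stood apart in markers of other cells. The mean log2 signal over 10 monocyte and macrophage genes was 8.00 to 8.21 in control cTregs, 8.17 to 8.35 in labelled KO cTregs and 8.75 to 9.21 in control eTregs, and in labelled KO eTregs it was 8.50, 10.71 and 10.77 for arrays 1, 2 and 3. All 10 were higher in eTregs in both genotypes, and 5 of 10 (Csf1r, Adgre1, Mrc1, C1qa, C1qc) rose in labelled KO. Of 6 dendritic cell genes 3 were higher and 3 lower in labelled KO eTregs than in control eTregs (-0.10 to 1.78). Among them 1 rose, Siglech, a marker of plasmacytoid dendritic cells, by 1.78 (limma, adjusted P = 0.000483). The mean over the 6 was 7.81, 8.42 and 8.69 on KO eTregs 1, 2 and 3, and 7.74 to 7.87 in control eTregs. The mean over 5 eTreg markers was 10.14 on KO eTreg 1, under the other eTregs (10.59 to 11.27). The median of the intron control probe sets was lowest on KO eTreg 2 (7.92) and KO cTreg 2 (7.95), against 8.07 to 8.54 on the others. The part of these signals in the differences of the cycle genes was not tested.

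Between labelled KO and control eTregs, the comparison of genotypes among activated Tregs, 0 of 45 genes met the rule (limma, smallest adjusted P 0.226), beside 0.117% of all transcript clusters, and 8 had an unadjusted P under 0.05, beside 8.03% of all. The differences leaned upward, with a median of 0.17 for mitotic genes (22 of 28 positive) and 0.09 for S phase genes (13 of 17 positive), while 44.2% of all transcript clusters were positive. At the study's threshold Ccne1 (0.51), Ccne2 (0.55), Gsg2 (0.60), Kif11 (0.55), Plk1 (0.52) and Top2a (0.54) were higher, 6 of 45 beside 1.90% of all. For Ccne1, Mcm3, Plk1, Gsg2 and Kif11 all labelled KO eTregs lay above all control eTregs, beside 3.01% of all.

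Ccne1, the other cyclin E gene, had the smallest P. It read 10.30, 10.30, 10.35 and 10.49 in control cTregs, 9.94, 10.46 and 10.32 in labelled KO cTregs, 10.23, 9.99, 10.33 and 10.15 in control eTregs and 10.90, 10.45 and 10.71 in labelled KO eTregs. In eTregs the labelled KO arrays were higher, by 0.51 (SE 0.14, limma, adjusted P = 0.226), and in cTregs the genotypes overlapped, with -0.12 (SE 0.14, limma, adjusted P = 1). Mcm3, with the per-array values given above, differed by 0.49 (SE 0.13, limma, adjusted P = 0.229) in eTregs, Kif11 by 0.55 (SE 0.15, limma, adjusted P = 0.236) and Plk1 by 0.52 (SE 0.16, limma, adjusted P = 0.301). Mki67 differed by 0.51 (SE 0.27, limma, adjusted P = 0.676), and its labelled KO and control eTregs overlapped. The widest difference, Bub1b at 0.88 (SE 0.53, limma, adjusted P = 0.748), came from values of 5.98, 7.88, 6.41 and 6.50 in control and 5.97, 8.11 and 8.64 in labelled KO eTregs. Tpx2, Cenpf and Ttk were lower, with -0.14, -0.15 and -0.28, none past the rule.

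The direction of the class medians turned with 1 array. Without KO eTreg 2 the median was -0.10 for mitotic and -0.04 for S phase genes, and without KO eTreg 1 it was 0.41 and 0.22. Without KO eTreg 1, Cdc6, Nusap1 and Top2a rose in labelled KO eTregs, and 10 mitotic and 4 S phase genes passed the study's threshold, beside 2.04% and 4.97% of all transcript clusters by the same rules. KO eTreg 1 alone, with no test, stood at medians of -0.29 and -0.16 against control eTregs, with Ccne1 at 0.73 and Kif11 at 0.55.

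**Figure D5:**
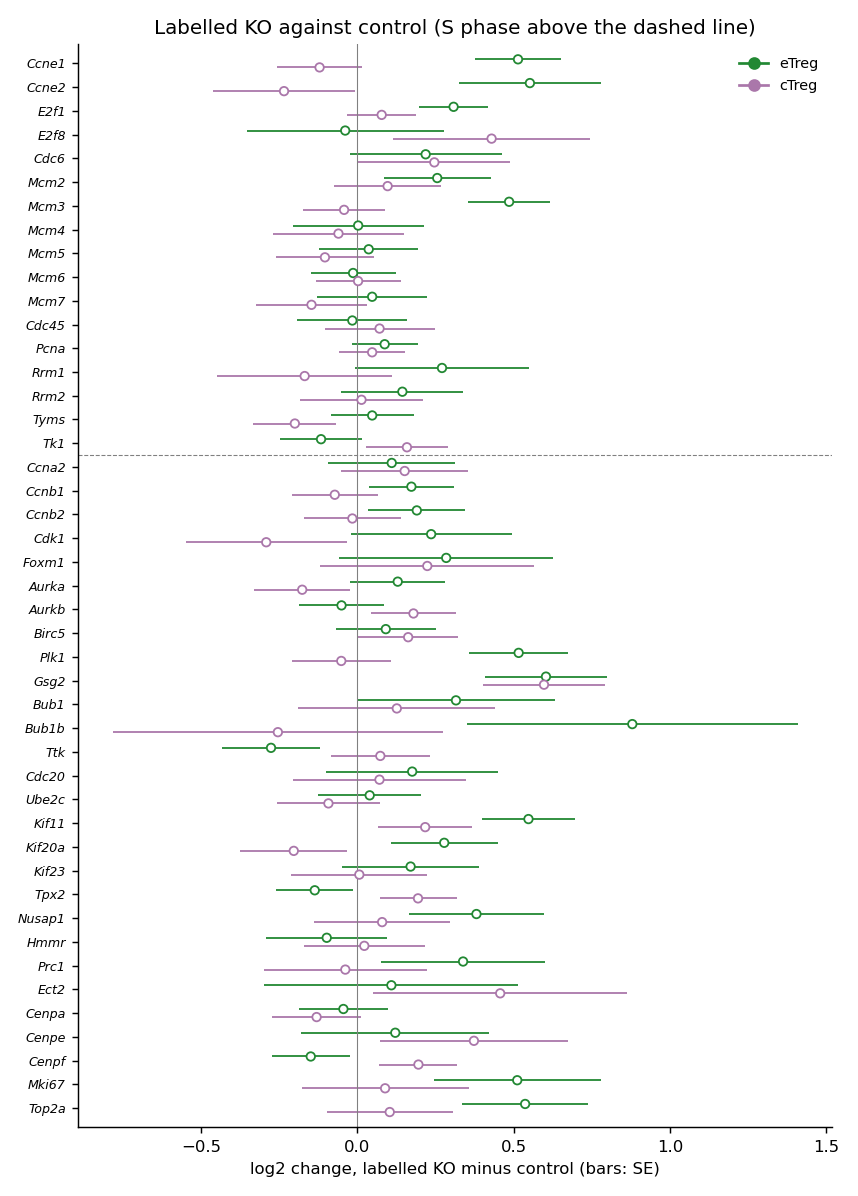
Log2 difference between labelled KO and control for each of the 45 genes in eTregs (green) and cTregs (purple), with SE as bars. Open points did not meet the rule, which is all of them. Most eTreg points (35 of 45) lie right of 0, beside 44.2% of all transcript clusters. The cTreg points lie on both sides (27 of 45 right of 0), beside 54.8% of all.

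In cTregs 0 of 45 genes met the rule between genotypes (limma, smallest adjusted P 0.9999), beside 0.0450% of all transcript clusters, and 1 gene had an unadjusted P under 0.05, beside 4.01% of all. The median was 0.08 for mitotic genes (18 of 28 positive) and 0.00 for S phase genes (9 of 17 positive), while 54.8% of all transcript clusters were positive. Without KO cTreg 2 these medians were 0.01 and -0.15. The gene with the unadjusted P under 0.05 was Gsg2 at 0.60 (SE 0.19, limma, adjusted P = 1), higher at the study's threshold, a rule met in the higher direction by 0.194% of all, and uncertain because of Itgae. Its cTreg values overlapped. For Tyms alone the genotypes did not overlap, with labelled KO at a difference of -0.20, beside 5.05% of all transcript clusters without overlap in either direction.

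Whether the genotypes differed in the eTreg minus cTreg difference was tested as an interaction. It was met by 0 of 45 genes (limma, smallest adjusted P 0.727) and by 0% of all transcript clusters (smallest 0.107), with 4 genes under an unadjusted P of 0.05, beside 6.12% of all. These were Ccne1 at 0.64, Ccne2 at 0.79, Plk1 at 0.57 and Mcm3 at 0.53, all in the direction of a larger eTreg minus cTreg difference in labelled KO, beside 1.82% of all at the study's threshold in that direction. The medians were 0.15 (mitotic) and 0.14 (S phase). Without KO eTreg 2 they were -0.01 and 0.00, and without KO eTreg 1 they were 0.33 and 0.32. A gene that rose in 1 genotype and not in the other was thus not shown to differ between them.

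Further genes of the cycle, listed by function, were then read. Of all transcript clusters 50.7% were higher in eTregs in controls and 40.4% in labelled KO. The rule was met by 3.06% (2.14% higher) and 2.35% (2.02% higher). Of 40 other mitotic genes 34 were higher in control eTregs than in control cTregs (median 0.24) and 3 rose, namely Racgap1 of the central spindle at 1.92, the kinesin Kif15 at 1.54 and the Cdk subunit Cks2 at 0.64. In labelled KO 34 were higher (median 0.34) and 7 rose, of which Kif15 at 1.16, the condensin gene Ncapg at 0.92 and Cks2 at 0.89 had the largest differences. Racgap1, at 1.71 (limma, adjusted P = 0.0818), and Ccnf, at 0.96 (limma, adjusted P = 0.218), had wider spreads and did not meet the rule; both were named after their values were seen. Kif15 lay under the background medians in control cTregs (mean 5.82). Of 36 other replication genes 20 were higher in controls (median 0.04), with 0 called and 7 under an unadjusted P of 0.05 (beside 12.8% of all transcript clusters), and 26 in labelled KO (median 0.13), where Dtl, part of the ligase that clears licensing factors, rose by 0.93 and the polymerase gene Pole by 0.79. Between genotypes 0 of the genes of both lists met the rule in either subset, and 7 in eTregs and 5 in cTregs of these 76 genes had an unadjusted P under 0.05, beside the 8.03% and 4.01% of all given above.

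Upstream of S phase, 0 of 8 G1 cyclin, Cdk4, Cdk6 and activating E2F genes met the rule in controls, beside 3.06% of all. An unadjusted P under 0.05 was found for 0 of 8, beside 12.8% of all. In labelled KO 1 of 8 rose, beside 2.02% of all, namely cyclin D1 (Ccnd1) by 1.30 (limma, adjusted P = 0.0181). Ccnd1 was also 1.23 higher in labelled KO than in control eTregs (limma, adjusted P = 0.0917), the smallest P of the list there. Of 19 Cdk inhibitor, pocket protein and quiescence genes 3 met the rule in controls, beside 3.06% of all. Klf2, a transcription factor of resting T cells, fell by 0.87, Cdkn2d, an inhibitor of Cdk4 and Cdk6, fell by 0.61, and Rb1, the retinoblastoma pocket protein, rose by 0.51. In labelled KO 3 met it as well, beside 2.35% of all. Klf2 fell by 0.75, Rb1 rose by 0.74 and Cdkn1a, the inhibitor p21, rose by 1.40 (limma, adjusted P = 0.00709). Cdkn1a was 0.93 higher in labelled KO than in control eTregs (limma, adjusted P = 0.201).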

How the data were processed

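The authors hybridised RNA of 14 sorted Treg samples to Clariom S mouse arrays and used RMA (robust multi-array average) of Expression Console 1.1 on the probes, so the deposited values are log2 signals, quantile normalised over all arrays together. The genome build of the probes is not given in the sources used here. Control probe sets and 3 entries without a symbol were left out, and 22203 of 28846 entries were tested.

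For each transcript cluster lmFit and eBayes of limma 3.58.1 (R 4.3.3) estimated the means of the 4 groups together and the contrasts between them, and P values were adjusted by the Benjamini-Hochberg method over all transcript clusters. The script was tested on simulated data. Genes named are all 45 genes of the set, the 3 of largest difference among those called in each list of neighbouring genes (or of smallest P where none was), Atg14 and the cell markers, of which 1 is not reported here. The genes and lists were chosen with earlier results of these data known. The number of arrays limits the precision. Arrays were also scaled, filtered, weighted, blocked and left out one at a time.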

Additional observations from a re-analysis of the deposited data

Results flagged for a closer look

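In groups of 4 arrays the highest or lowest array was compared with the others by the ratio of its gap to the range of the group. Of 96 groups examined 9 had an array past the critical value of Dixon's test, and chance alone gives about 1 in 20. Groups of 3 were not examined.

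Control eTreg 2 was the array that stood apart most often, high for Mcm3 (10.76, next 10.54), Mcm5 (10.9, next 10.56), Rrm1 (9.92, next 9.57) and for the mean shift of the S phase genes (0.3136, next 0.2052). In control cTreg 1 Top2a (7.807, next 8.37) and Cenpa (11.03, next 11.38) were low. Nusap1 was high in control eTreg 1 (8.399, next 7.958), Kif11 was low in control cTreg 2 (7.499, next 7.67), and Bub1 was high in control cTreg 4 (6.113, next 5.63), where its signal is near the background.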

How the results depend on the processing

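Array medians or 75th percentiles were subtracted, or a filter at the background median (added after seeing the data) was used. Each count of genes called at an adjusted P then stayed within 1.5 times its main value. At the study's threshold the S phase count between genotypes in eTregs went from 2 to 1 (Ccne2) with 75th percentiles subtracted, beside 2.73% of all. In controls (eTreg minus cTreg: 1 S phase, 5 mitotic) the S phase count was 0 with the filter on low signal (highest group mean above 9.58, the 95th percentile of the background probe sets), which kept 16 of the 45 genes, 0 with a trended robust prior, 3 with array weights, 2 with only the groups compared, 2 with the fixed and 2 with the random replicate block, and 2 with KO eTregs 2 and 3 both left out; the mitotic count was 3 with the filter, 8 with array weights and 9 with those 2 arrays left out. The filter on low signal removed E2f8, Kif23 and Tpx2, so their calls in controls were not tested with it. It kept 11 S phase and 5 mitotic genes. The 3 mitotic genes called in controls were Birc5, Gsg2 and Mki67, beside 5.96% of all kept. It also removed Ccne2, Kif23, Top2a, Plk1 and Kif11, so their calls in labelled KO were not tested with it. In labelled KO (3 and 6, beside 2.35% of all) the S phase count was 0 with only the groups compared, where 0.599% of all were called. It was 5 with the fixed replicate block (2.91%). The mitotic count was 3 of 5 with the filter (Ccnb2, Gsg2 and Mki67, beside 4.75% of all kept). It was 11 with array weights (4.33%) and 3 with only the groups compared. With KO eTregs 2 and 3 both left out, the remaining labelled KO eTreg array is assumed to vary like the other groups. Counts from that fit are therefore not given. Between genotypes in eTregs array weights called 1 S phase gene (Mcm3) and 2 mitotic genes (Gsg2, Kif11), and 1.96% of all transcript clusters against 0.117%. Without KO eTregs 2 and 3 the labelled KO subset differences of Bub1b (-0.235), Nusap1 (-0.195), Bub1 (-0.0558) and Rrm1 (-0.00372) and the eTreg genotype difference of Top2a (-0.0243) were no longer positive. The cause was not tested.

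Leaving out each array in turn moved the S phase count between 0 and 2 in controls, 0 and 7 in labelled KO and 0 and 1 between genotypes in eTregs, and the mitotic count between 3 and 7, 2 and 13, and 0 and 2. In labelled KO and between genotypes in eTregs the share of all transcript clusters called moved with the same arrays, as given above. For controls that share is not given, so these ranges are not read as particular to the cycle genes. In cTregs and for the interaction each count was 0 throughout.

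Arrays of 1 genotype that share a replicate number deviated from their group means with correlations of 0.22, 0.15, 0.10 and 0.07 in control and 0.30, 0.29 and 0.04 in labelled KO, and 6 of 7 cTregs (not control 4) and 6 of 7 eTregs (not KO 3) correlated best with their own number. Arrays of the 2 genotypes that share a number correlated at 0.26, 0.16 and 0.08 in cTregs and at 0.29, 0.28 and 0.01 in eTregs; what the numbers share is not given in the sources used here. No label used here says that equal numbers are 1 chimera, so the numbers were not taken as pairs in the main tests. Some calls depended on that choice. With the fixed replicate block Birc5 lost its call in controls (adjusted P 0.0813) and Rrm2 gained one (0.0282), and in labelled KO Cdk1 (0.035), Bub1b (0.0396), Rrm1 (0.0405) and Rrm2 (0.0272) gained one. With the random block Ccna2 (0.0227) and Rrm2 (0.0474) gained a call in controls, and Cdk1 (0.0259), Ccnb2 (0.0235), Kif20a (0.0331) and Rrm2 (0.0368) in labelled KO. Between genotypes, where the number was the fixed block, 0 of 45 were called. The random replicate block had a consensus correlation of 0.24.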
